A study of Mus musculus with 8 samples.

Results

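The p53 pathway genes described here are *Trp53*, which encodes the transcription factor p53, its negative regulator *Mdm2*, and the p53 targets *Cdkn1a*, *Ccng1*, *Btg2*, *Bax*, *Bbc3*, *Phlda3*, *Trp53inp1* and *Sesn1*. They were taken by symbol from the deposited table of the RNA-seq, 1 entry for each gene on its main chromosome, which gave 10 of the 50902 genes of the table. All 10 were above 0 in every library, and 9 passed the filter of a mean of 0.1 RPKM over the 8 libraries that 9002 genes passed. The gene that did not pass was *Sesn1*.

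The study compared mouse E14 ESCs, cultured with LIF and 2i, that expressed BAZ2A with or without its RNA-binding TAM domain. ESC + F/H-BAZ2ArWT (the WT line) carried a FLAG- and HA-tagged wild-type BAZ2A transgene that is resistant to the siRNA, and ESC + F/H-BAZ2ArΔTAM (the ΔTAM line) carried the same transgene without the TAM domain. Both lines were treated with siRNA against endogenous *Baz2a* and collected 3 days after transfection, with 4 libraries of each line. The transgenes were inserted with piggyBac transposase and selected with puromycin, and single-cell clones were screened by western blot, so that a difference between the lines cannot be told apart from a difference between clones. The sources used here do not say whether the 4 libraries of a line came from separate cultures, so p-values measure only the spread between these libraries, which may be technical.

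p53 is a transcription factor that is held at a low level by MDM2, an E3 ubiquitin ligase that marks it for degradation, and *Mdm2* is in turn a p53 target, which closes a negative feedback loop. After DNA damage or other stress p53 is stabilized and activates genes that halt the cell cycle, start apoptosis, limit growth signalling or repair DNA. Mouse ESCs are known for a high level of p53 and a short G1 phase.

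The libraries held between 6565629 and 8669093 reads on genes, recovered from the steps of the RPKM values, so that each gene's reads give its counting error. The reads of *Baz2a* hold those of the transgene as well as of any endogenous mRNA left by the siRNA. *Baz2a* had 9.95, 10.3, 10.5 and 11.2 RPKM in the WT libraries and 17.0, 18.6, 18.5 and 18.9 RPKM in the ΔTAM libraries, a log2 fold change of 0.80 (standard error, SE, 0.046; adjusted p = 3.35e-05 with limma). The lines therefore differed in the amount of *Baz2a* mRNA as well as in the TAM domain, and the part of this mRNA difference in the results below was not tested. For the protein, the paper reports similar BAZ2A levels in both lines by western blot. All 8 ESC marker genes passed the filter, and 4 of them were lower in the ΔTAM line (*Tdgf1*, *Sox2*, *Klf4* and *Esrrb*), where 16% of all 9002 tested genes were lower. The summed level of 6 primitive endoderm markers was between 0.0183 and 0.0445 RPKM in the WT line and between 0.0328 and 0.0463 RPKM in the ΔTAM line, and that of 6 fibroblast markers stayed at or below 0.0332 RPKM, with *Col3a1* and *Lum* at 0 in every library. For 6 trophectoderm markers the sum was 1.34 to 1.37 RPKM in the WT line and 1.37 to 1.68 RPKM in the ΔTAM line. Of the 3 of them that passed the filter, *Tfap2c* was higher (log2 fold change 0.20), *Eomes* lower (-0.42) and *Cdx2* not called, although voom called *Cdx2* higher (0.39, adjusted p = 0.0328). In bulk samples, fewer cells that express a gene and less RNA per cell cannot be told apart.

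Of the 10 genes, *Cdkn1a* differed most, with 1.52 times the level in the ΔTAM line. *Mdm2*, *Trp53* and *Trp53inp1* were also higher, at 1.25, 1.10 and 1.13 times their level in the WT line, and *Ccng1* was lower, at 0.843 times its level in the WT line. *Bax*, *Bbc3*, *Phlda3* and *Btg2* did not pass the test, and *Sesn1*, tested on its reads, was higher, at 1.28 times. In numbers, 4 of the 9 tested genes were called higher and 1 lower (adjusted p under 0.05 with limma, Benjamini-Hochberg adjustment over 9002 genes), where 20.1% of all tested genes were called higher and 16% lower, 36% in all. The same 4 and 1 did not overlap between the lines, against 20.5% of all tested genes without overlap and higher and 16.7% without overlap and lower. The median log2 fold change of the 9 genes was 0.12, and that of all genes tested was 0.014.

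**Figure D1:**
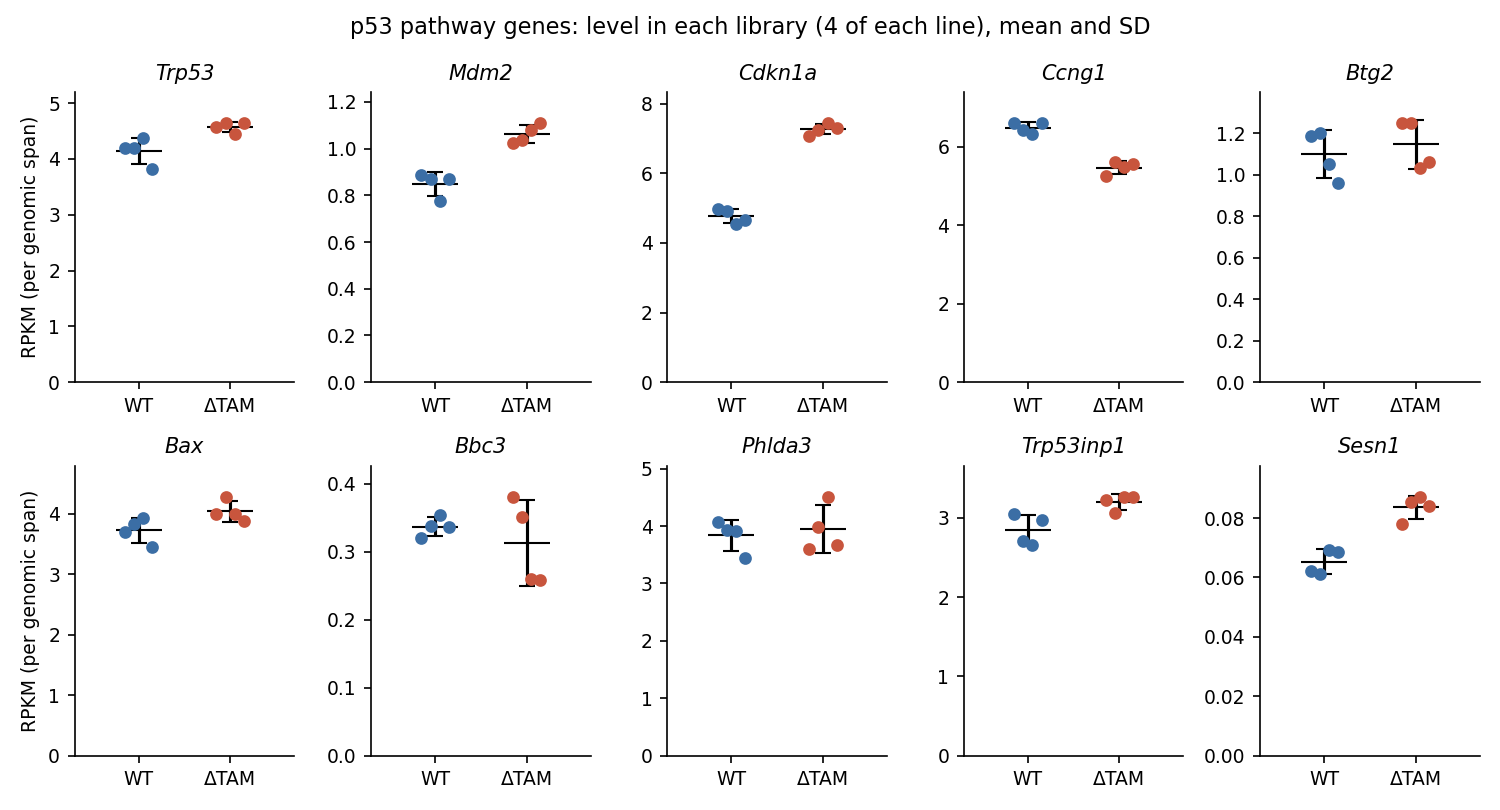
RPKM per genomic span (vertical axes from 0, a scale for each gene) of the 10 p53 pathway genes in the 4 libraries of the WT line (blue) and the 4 of the ΔTAM line (red), with the mean and SD of each line in black. *Cdkn1a* lies between 4.53 and 4.99 RPKM in the WT line and between 7.09 and 7.44 RPKM in the ΔTAM line, *Ccng1* is the gene whose ΔTAM libraries all lie below the WT libraries, and the lines overlap for *Btg2*, *Bax*, *Bbc3* and *Phlda3*.

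The sequences upstream of *Cdkn1a* and *Ccng1* are shown because these genes had the largest rise and the only called fall among the 10, and because of the 13 RefSeq promoter windows of 9 of the genes (GRCm38.p6, 250 bases before to 50 bases after a start) theirs alone held a full p53 site. A half-site was defined as the 10-base p53 consensus of 3 purines, C, 2 bases that are A or T, G and 3 pyrimidines, which reads the same way on both strands. A full site was 2 adjoining half-sites, 20 bases, with both C and both G fixed and at most 2 mismatches elsewhere. The stretch upstream of *Mdm2*, which had the next largest difference of the 9 genes tested with limma, is shown with its single half-site. Each run ends 26 bases before the RefSeq start, reads 5′ to 3′ on the strand of the gene, and has the full site, or for *Mdm2* the half-site, in capitals.

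Cdkn1a, chr17:29090729-29090953, plus strand: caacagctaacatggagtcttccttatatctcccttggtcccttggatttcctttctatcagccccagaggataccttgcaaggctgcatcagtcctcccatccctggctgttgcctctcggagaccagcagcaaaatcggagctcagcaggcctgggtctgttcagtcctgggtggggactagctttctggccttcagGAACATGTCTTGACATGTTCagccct

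Ccng1, chr11:40755312-40755536, minus strand: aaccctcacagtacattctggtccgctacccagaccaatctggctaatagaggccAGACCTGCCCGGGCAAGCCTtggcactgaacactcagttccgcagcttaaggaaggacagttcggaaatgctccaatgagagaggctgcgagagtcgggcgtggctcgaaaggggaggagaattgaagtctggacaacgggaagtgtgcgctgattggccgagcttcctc

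Mdm2, chr10:117710784-117711008, minus strand: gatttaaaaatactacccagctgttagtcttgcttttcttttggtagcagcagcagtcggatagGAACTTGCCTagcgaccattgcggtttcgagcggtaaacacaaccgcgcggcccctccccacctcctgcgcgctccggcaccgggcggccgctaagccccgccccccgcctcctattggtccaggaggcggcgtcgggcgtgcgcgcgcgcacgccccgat

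The capitals of *Cdkn1a* lie 51 to 32 bases before its upstream start (chr17:29090928-29090947) and those of *Ccng1* 195 to 176 bases before its start (chr11:40755462-40755481), each with 1 mismatch to the consensus. A full site with at most 1 mismatch was found in 0.0670% of 32851 RefSeq windows of the same length, and with at most 2 mismatches in 0.326%. A half-site was found in 6 of the 13 windows, those of *Bax*, *Ccng1*, *Mdm2*, *Trp53*, 1 of the *Cdkn1a* windows and 1 of the *Sesn1* windows, and in 8.36% of all windows. The genes with the full site thus moved in opposite directions between the lines, *Cdkn1a* up and *Ccng1* down. These are matches of letters within the window, not measured sites of binding. Bases outside the windows were not scanned, so a gene without a full site here, such as *Mdm2*, may hold one elsewhere.

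*Trp53* (ENSMUSG00000059552.13, chr11:69580359-69591873, plus strand) had 4.19, 4.20, 4.37 and 3.82 RPKM in the WT libraries and 4.57, 4.64, 4.44 and 4.64 RPKM in the ΔTAM libraries. Every ΔTAM library was above every WT library, but the gap was small, since the highest WT library lay just under the lowest ΔTAM library. Its log2 fold change was 0.14 (SE 0.043, adjusted p = 0.0343 with limma), and an exact permutation test over the libraries gave p = 0.0286 (two-sided, n = 4 in each line), the smallest value that 4 against 4 libraries allow. The call was close to the threshold. It was lost without WT replicate 1 (adjusted p = 0.0644 with limma) or 2 (0.0613) and without ΔTAM replicate 1 (0.0638), 2 (0.0789) or 4 (0.0832), with quantile normalization of the libraries (0.0689) and with no filter on low genes (0.0663). With limma voom on the recovered reads, 2270 to 3104 per library, the log2 fold change was also 0.14 (adjusted p = 0.00367). *Trp53-ps*, the pseudogene of that name on chromosome 17, had 0 reads in every library.

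*Mdm2* (ENSMUSG00000020184.15, chr10:117688875-117710758, minus strand), the E3 ligase that restrains p53, had 0.888, 0.868, 0.775 and 0.869 RPKM in the WT libraries and 1.02, 1.04, 1.08 and 1.11 RPKM in the ΔTAM libraries. The lines did not overlap, and the lowest ΔTAM library lay well above the highest WT library. On the log2 scale the difference was 0.32 (SE 0.050, adjusted p = 0.00213 with limma; exact permutation p = 0.0286). Its 95% interval ran from 0.20 to 0.44 and overlapped that of *Trp53*, 0.043 to 0.24. Without each library in turn, the log2 fold change of *Mdm2* stayed between 0.28 and 0.34, with a largest adjusted p of 0.00818. On the log2(RPKM + 1) scale, which understates the change of low genes, it was 0.16.

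*Cdkn1a* (ENSMUSG00000023067.14, chr17:29090979-29100722, plus strand) encodes p21, an inhibitor of cyclin-dependent kinases and the best known p53 target in cell cycle arrest. Its level was 4.99, 4.92, 4.53 and 4.66 RPKM in the WT libraries and 7.09, 7.24, 7.44 and 7.31 RPKM in the ΔTAM libraries. The lines lay far apart, and the gap between the highest WT and the lowest ΔTAM library was the widest in RPKM of the 10 genes. The log2 fold change was 0.61 (SE 0.036, adjusted p = 3.61e-05 with limma; exact permutation p = 0.0286), and it stayed between 0.58 and 0.63 without each library in turn. The reads behind these values were 2152 to 2469 per library in the WT line and 3092 to 4134 in the ΔTAM line. The spread between libraries was 4.46% of the mean in the WT line and 2.04% in the ΔTAM line, where counting alone would give 2.07% and 1.69%. In GENCODE vM21, 273 of the exon bases of *Cdkn1a* lie opposite an antisense transcript, and the use of strand in the counting is not given in the sources used here, so reads of that transcript could be counted with it.

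*Ccng1* (ENSMUSG00000020326.7, chr11:40748552-40755311, minus strand) encodes cyclin G1, a p53 target that feeds back on p53 through MDM2. It had 6.60, 6.42, 6.33 and 6.60 RPKM in the WT libraries and 5.25, 5.60, 5.47 and 5.55 RPKM in the ΔTAM libraries. All ΔTAM libraries were below all WT libraries, the reverse of *Cdkn1a* and *Mdm2*. Its log2 fold change was -0.25 (SE 0.029, adjusted p = 5.81e-04 with limma; exact permutation p = 0.0286), and the alternatives tried, single libraries left out included, kept it between -0.29 and -0.21 with a largest adjusted p of 0.00803. The spread between libraries, 2.08% of the mean in the WT line and 2.81% in the ΔTAM line, was close to the 2.13% and 2.34% that counting alone gives.

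*Btg2* (ENSMUSG00000020423.6, chr1:134075170-134079120, minus strand), an antiproliferative p53 target, had 1.19, 1.20, 1.05 and 0.962 RPKM in the WT libraries and 1.25, 1.25, 1.03 and 1.06 RPKM in the ΔTAM libraries. Each line had a pair of libraries near the top and a pair near the bottom of the same range, so the lines overlapped throughout. The difference on the log2 scale was 0.061 (95% interval -0.16 to 0.28, adjusted p = 0.657 with limma; exact permutation p = 0.543). The interval includes a difference of the size seen for *Trp53*. With 196 to 244 reads per library, the spread was 10.4% of the mean in the WT line and 10.3% in the ΔTAM line, against 6.78% and 6.68% from counting alone.

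Of the genes of apoptosis, *Bax* (ENSMUSG00000003873.11, chr7:45461697-45466898, minus strand), whose protein permeabilizes the outer mitochondrial membrane, had 3.71, 3.83, 3.93 and 3.45 RPKM in the WT libraries and 4.00, 4.29, 4.00 and 3.89 RPKM in the ΔTAM libraries. Only the lowest ΔTAM library fell within the range of the WT line. The log2 fold change was 0.12 (SE 0.048, adjusted p = 0.0958 with limma; exact permutation p = 0.0571), which missed the threshold, whereas limma voom on the reads gave 0.12 with an adjusted p of 0.0436. *Bbc3* (ENSMUSG00000002083.13, chr7:16308393-16318205, plus strand) encodes PUMA, a BH3-only activator of apoptosis, and had 0.320, 0.338, 0.354 and 0.336 RPKM in the WT libraries. In the ΔTAM libraries it had 0.381, 0.351, 0.260 and 0.258 RPKM, of which 1 lay above the range of the WT line, 1 within it and 2 below it. This spread, 20.2% of the mean, was larger than the 8.16% that counting alone gives from 136 to 169 reads, whereas in the WT line it was 4.11% against 7.75%. The log2 fold change of *Bbc3* was -0.12 (95% interval -0.43 to 0.18, adjusted p = 0.492 with limma; exact permutation p = 0.4). With each library left out in turn it ranged from -0.22 to -0.042.

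*Phlda3* (ENSMUSG00000041801.5, chr1:135766119-135769136, plus strand), a p53 target that inhibits AKT signalling, had 4.07, 3.93, 3.91 and 3.44 RPKM in the WT libraries and 3.60, 3.99, 4.51 and 3.67 RPKM in the ΔTAM libraries. The highest value was in ΔTAM replicate 3 and the lowest in WT replicate 4, and the sign of the difference rested on them. Its log2 fold change of 0.036 (95% interval -0.16 to 0.23, adjusted p = 0.763 with limma; exact permutation p = 0.714) became -0.031 without the former and -0.015 without the latter. *Trp53inp1* (ENSMUSG00000028211.11, chr4:11156431-11174379, plus strand), which encodes a stress-induced protein that acts on p53 and in autophagy, had 3.05, 2.71, 2.65 and 2.97 RPKM in the WT libraries and 3.22, 3.05, 3.26 and 3.27 RPKM in the ΔTAM libraries. The lines did not overlap, by a margin smaller than the spread within either, and the log2 fold change was 0.17 (SE 0.051, adjusted p = 0.0332 with limma; exact permutation p = 0.0286). As for *Trp53*, the call of *Trp53inp1* was lost without single libraries, namely WT replicate 2 (adjusted p = 0.0839 with limma) or 3 (0.0741) and ΔTAM replicate 1 (0.0673), 3 (0.0801) or 4 (0.0816), with quantile normalization (0.0936) and with no filter (0.0672).

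*Sesn1* (ENSMUSG00000038332.13, chr10:41809935-41908424, plus strand) encodes sestrin 1, which restrains mTORC1 signalling and oxidative stress. Its RPKM was low because the deposited values divide by the whole gene span, 98.5 kb for *Sesn1*, of which 4.04% is exon. It had 0.0623, 0.0611, 0.0694 and 0.0685 RPKM in the WT libraries and 0.0782, 0.0853, 0.0872 and 0.0841 RPKM in the ΔTAM libraries, from 305 to 348 and 348 to 481 reads. The lines did not overlap. With limma voom on the reads the log2 fold change was 0.36 (SE 0.064, adjusted p = 7.63e-05), between 0.33 and 0.39 without each library in turn, and the exact permutation p was 0.0286. By voom, which tested all 10 genes, 6 were called higher (the 4 above, *Bax* and *Sesn1*) and *Ccng1* lower, where 43.8% of 12659 genes were called in either direction, 21.8% higher and 22% lower.

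**Figure D2:**
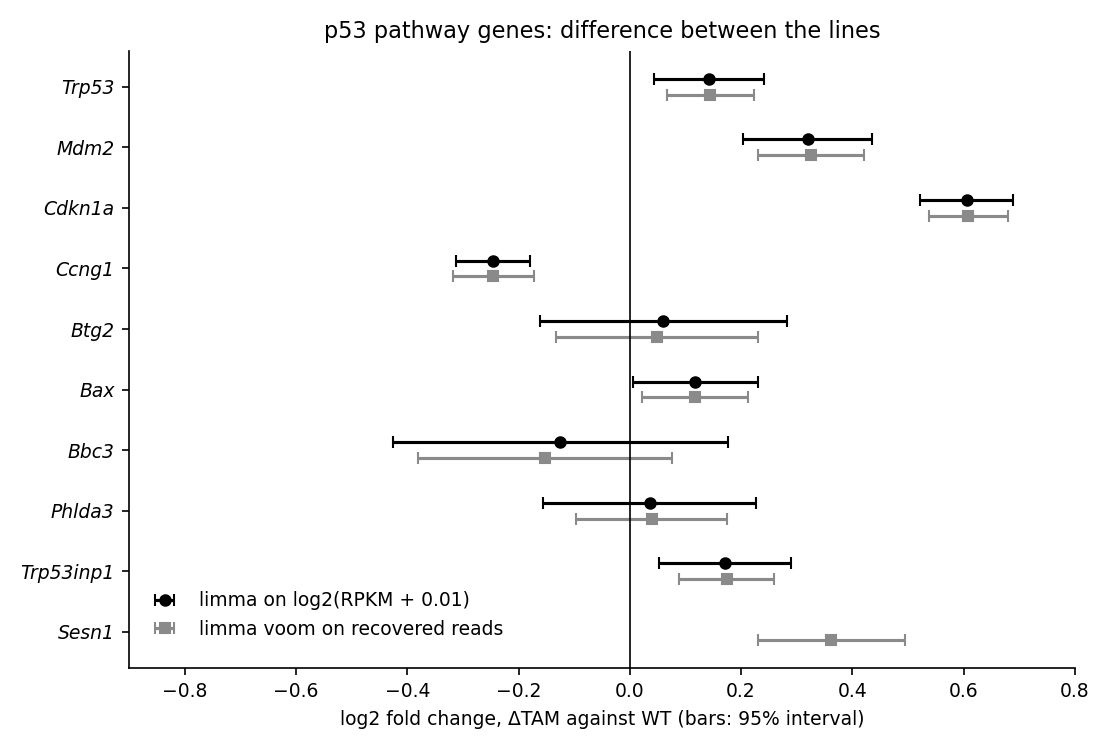
Log2 fold change of the 10 genes, ΔTAM line against WT line, with 95% intervals, from limma on log2(RPKM + 0.01) (black circles) and from limma voom on the recovered reads (grey squares). *Cdkn1a* lies farthest to the right at 0.61, *Ccng1* lies to the left of 0 at -0.25 and *Sesn1*, below the filter, has the voom value of 0.36 only.

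Because the RPKM are per span, the levels of different genes were compared as exon RPKM, that is reads per kilobase of exon scaled by the library's reads on genes. The deposited values are scaled by a larger total, so the figures of the 2 scales are not to be set side by side. In exon RPKM, the WT line had *Cdkn1a* at 87.9 ± 3.82 (SD, n = 4), *Ccng1* at 83.8 ± 1.92, *Bax* at 82.6 ± 4.39 and *Trp53* at 79.2 ± 4.24. Neighbours among these 4 overlapped, and all 4 lay above the rest, although *Cdkn1a* was above *Ccng1*, and *Bax* above *Trp53*, within each of the 4 libraries. In GENCODE vM21, *Bax* shares 192 exon bases with *Gm45808*, a gene on the same strand that had 0 reads in every library. How reads in shared bases were counted is not given in the sources used here, so the level of *Bax* may be affected. *Trp53inp1* at 52.9 ± 3.68 and *Phlda3* at 49.9 ± 3.43 overlapped each other and stood apart from *Mdm2* at 24.6 ± 1.48. The lowest 3, *Sesn1* at 10.9 ± 0.722, *Btg2* at 10.6 ± 1.08 and *Bbc3* at 10.5 ± 0.426, did not differ beyond their spread. In the ΔTAM line *Cdkn1a*, at 134 ± 2.23, no longer overlapped any other gene, and *Ccng1*, at 70.5 ± 1.69, stood below *Bax* at 89.4 ± 3.60 and *Trp53* at 87.2 ± 1.94 without overlap. *Sesn1*, at 13.9 ± 0.583, was there above *Btg2* at 11.1 ± 1.16 in all 4 libraries.

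**Figure D3:**
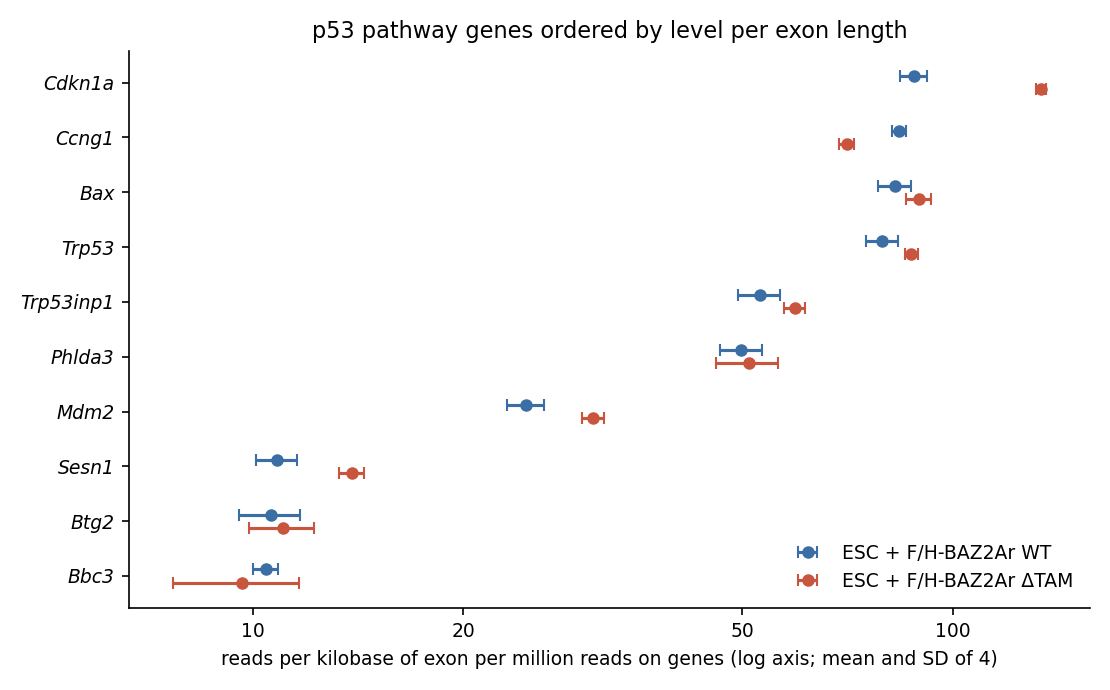
Level of the 10 genes in exon RPKM (log axis), mean and SD of 4 libraries, in the WT line (blue) and the ΔTAM line (red), ordered by the WT line. *Cdkn1a*, *Ccng1*, *Bax* and *Trp53* lie between 79.2 and 87.9 in the WT line, and between 70.5 and 134 in the ΔTAM line.

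The other genes of the pathway were taken in 4 lists by role, 68 genes in all, of which 53 passed the filter. Of these, 6 were higher and 17 lower in the ΔTAM line, and 30 did not pass the test (adjusted p under 0.05 with limma), with a median log2 fold change of -0.072. Among all tested genes the shares were the 20.1% higher and 16% lower given above.

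Of 22 genes that act on p53, 18 were tested, 3 were higher and 3 lower, with a median log2 fold change of -0.014. *Usp7*, which encodes the deubiquitinase of MDM2 and p53, had 0.866 ± 0.0096 RPKM (SD, n = 4) in the WT line and 1.002 ± 0.0087 RPKM in the ΔTAM line, a log2 fold change of 0.21 (SE 0.023, adjusted p = 4.37e-04 with limma). Of the kinases of the DNA damage response upstream of p53, *Atr* and *Chek1* were lower, and *Atm* and *Chek2* did not pass the test. *Atr*, the kinase that senses stalled replication forks, fell by 0.38 on the log2 scale (SE 0.090, adjusted p = 0.0135 with limma), from 0.148 ± 0.0074 to 0.112 ± 0.013 RPKM. *Chek1*, the kinase that ATR activates, fell by 0.23 (SE 0.033, adjusted p = 0.00145 with limma), from 0.860 ± 0.031 to 0.731 ± 0.014 RPKM. The other calls, named after their values were seen to complete the counts, were *Ep300* (0.19), *Aurka* (0.16) and *Rpl5* (-0.070). *Mdm4*, the partner of MDM2, had a log2 fold change of -0.11 and *Ppm1d*, the phosphatase that switches p53 signalling off, one of 0.24, and neither passed the test (adjusted p = 0.278 and 0.0573 with limma). By voom *Ppm1d* passed it (0.26, adjusted p = 0.0111), and every ΔTAM library was above every WT library. Voom called 5 of 21 genes of this list higher and 4 lower, where 21.8% of all genes were higher and 22% lower. Besides *Ppm1d*, *Trp53bp1* (0.14, adjusted p = 0.0394) and *Cop1* (-0.18, adjusted p = 0.0430) were called by voom only.

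Of 14 other targets in the cell cycle, 9 were tested, 2 were higher and 3 lower, with a median of -0.075. *Sfn*, which encodes 14-3-3 sigma, a brake on the G2/M transition, had 0.724, 0.915, 0.955 and 0.757 RPKM in the WT libraries and 1.22, 1.60, 1.43 and 1.37 RPKM in the ΔTAM libraries, without overlap (log2 fold change 0.74, SE 0.11, adjusted p = 0.00195 with limma). *Gadd45a*, a stress sensor of growth arrest and DNA repair, moved the other way, with 0.571, 0.592, 0.557 and 0.886 RPKM against 0.328, 0.358, 0.453 and 0.372 RPKM (log2 fold change -0.75, SE 0.16, adjusted p = 0.0093 with limma). WT replicate 4 stood apart for *Gadd45a*, and without it the log2 fold change was -0.60 and the adjusted p 0.00594. *Gdf15*, a secreted stress factor, had 0.644, 0.754, 0.483 and 0.607 RPKM against 0.455, 0.291, 0.404 and 0.377 RPKM (log2 fold change -0.69, SE 0.17, adjusted p = 0.0146 with limma). The reads behind these 3 genes were few, between 35 and 128 per library. *Plk3* (0.37) and *Psrc1* (-0.27) completed the calls.

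Of 14 other targets in apoptosis, 13 were tested, 1 was higher and 3 lower, with a median of -0.066. *Apaf1*, the core of the apoptosome that activates caspase-9, had 0.210, 0.208, 0.194 and 0.209 RPKM in the WT libraries and 0.142, 0.136, 0.133 and 0.123 RPKM in the ΔTAM libraries. The lines lay well apart (log2 fold change -0.59, SE 0.057, adjusted p = 2.56e-04 with limma). *Pmaip1*, which encodes the BH3-only protein NOXA, was also lower without overlap, from 0.254 ± 0.031 to 0.172 ± 0.030 RPKM (log2 fold change -0.54, SE 0.13, adjusted p = 0.0153 with limma). *Eda2r*, a receptor of the TNF receptor family, was lower by less, from 0.253 ± 0.018 to 0.223 ± 0.0076 RPKM (log2 fold change -0.18, SE 0.056, adjusted p = 0.0411 with limma). The call of *Eda2r* held without WT replicate 3 (adjusted p = 0.0223) and was lost without any other single library, at adjusted p values from 0.0571 to 0.102, and with no filter (0.0769). *Bid* (0.099) was the gene called higher, a call that was lost by voom (adjusted p = 0.0576), where *Zfp385a* was the gene called higher (0.24, adjusted p = 0.0168) and *Rps27l* was also called lower (-0.10, adjusted p = 0.0376).

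Of 18 targets in metabolism and DNA repair, 13 were tested, none was higher and 8 were lower with limma, with a median of -0.29. At an unadjusted p under 0.05, 2 were higher and 8 lower, where 25% of all tested genes were higher and 20.8% lower. By voom 2 were higher (*Gpx1* and *Prkab1*) and 10 lower of 17 with enough reads, where 21.8% of all genes were higher and 22% lower. The 10 lower by voom include *Ephx1* (-1.04, adjusted p = 2.30e-08) and *Ddb2* (-0.30, adjusted p = 0.0230), which were below the filter used for limma. *Ninj1*, which encodes a membrane protein of plasma membrane rupture, had 0.356, 0.439, 0.391 and 0.296 RPKM in the WT libraries and 0.139, 0.133, 0.197 and 0.169 RPKM in the ΔTAM libraries, a log2 fold change of -1.17 (SE 0.15, adjusted p = 9.75e-04 with limma). *Ddit4*, an inhibitor of mTORC1, had 4.91, 4.86, 4.86 and 4.77 RPKM against 3.43, 3.46, 3.07 and 2.80 RPKM (log2 fold change -0.61, SE 0.067, adjusted p = 4.37e-04 with limma). *Fdxr*, a mitochondrial ferredoxin reductase, fell from 0.331 ± 0.018 to 0.259 ± 0.019 RPKM (log2 fold change -0.35, SE 0.061, adjusted p = 0.0038 with limma). The other calls were the nucleotide excision repair genes *Xpc* (-0.33) and *Ercc5* (-0.33), *Sesn2* (-0.31), *Cpt1c* (-0.29) and *Dcxr* (-0.28). *Sesn2*, the paralog of *Sesn1*, was thus lower in the ΔTAM line where *Sesn1* was higher.

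*Ddit4* and *Sesn2* are also targets of ATF4, the transcription factor of the amino acid and integrated stress response. Of 12 ATF4 targets, 10 were tested and all 10 were lower, where 16% of all tested genes were lower, with a median log2 fold change of -0.56, among them *Chac1* (-1.35) and *Asns* (-0.75). The list was chosen with earlier results of these data known and holds *Ddit4* and *Sesn2* themselves, so the count is a description only. The part of ATF4 in the changes of *Ddit4* and *Sesn2* was not tested. The other 6 genes of the metabolism and repair list called with limma are not in the ATF4 list. That list is short, and a part of ATF4 in the changes of these or other genes was not tested.

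**Figure D4:**
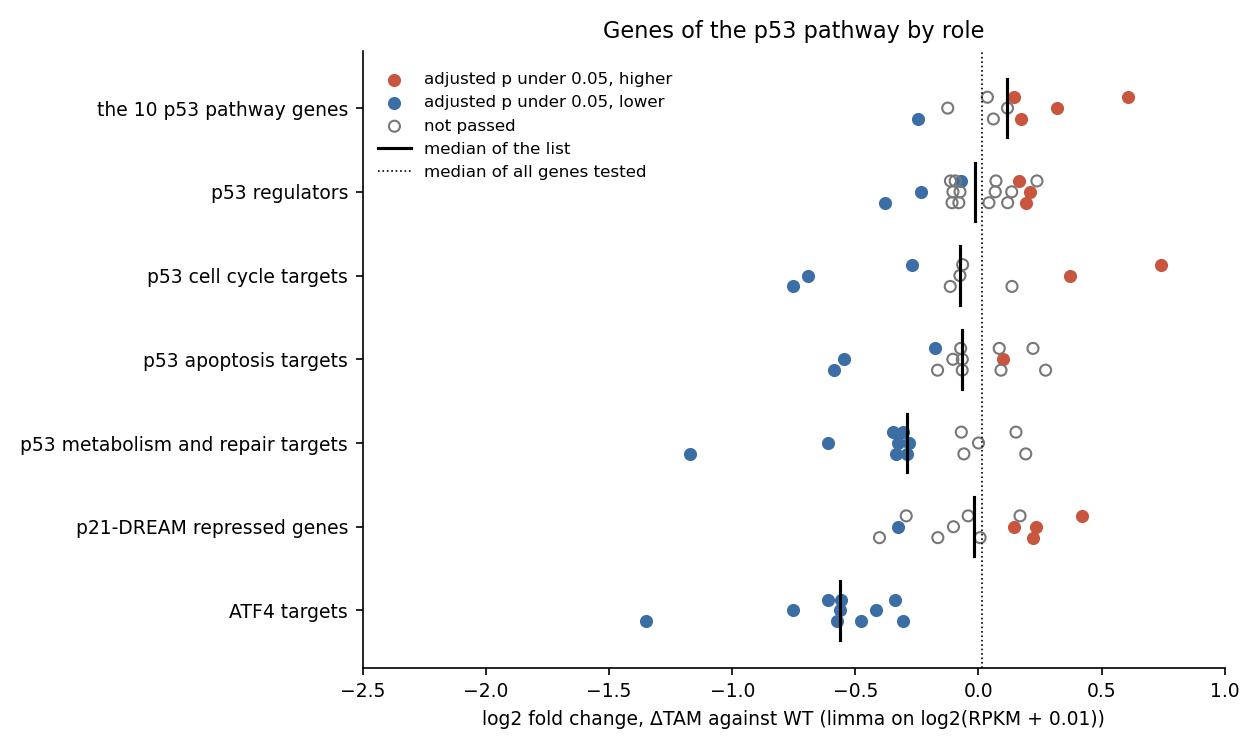
Log2 fold change, ΔTAM line against WT line, of the tested genes of each list (limma on log2(RPKM + 0.01)); filled points passed the test (red higher, blue lower), open points did not, black bars are list medians and the dotted line is the median of all genes tested. The median is 0.12 for the 9 tested of the 10 genes, -0.29 for targets in metabolism and repair, and -0.56 for ATF4 targets.

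A rise of p21 is known to lead, through the DREAM complex, to repression of genes of G2 and mitosis, and 12 such genes were examined. All 12 were tested, 4 were higher and 1 lower, with a median log2 fold change of -0.018. *Birc5*, which encodes survivin, had 2.81, 2.72, 2.80 and 2.68 RPKM in the WT libraries and 3.49, 3.82, 3.74 and 3.69 RPKM in the ΔTAM libraries (log2 fold change 0.42, SE 0.034, adjusted p = 1.20e-04 with limma). *Cdc20*, an activator of the anaphase-promoting complex, rose from 6.04 ± 0.26 to 7.10 ± 0.36 RPKM (log2 fold change 0.23, SE 0.047, adjusted p = 0.00653 with limma). *Bub1*, a kinase of the spindle checkpoint, fell from 0.965 ± 0.038 to 0.769 ± 0.064 RPKM (log2 fold change -0.33, SE 0.062, adjusted p = 0.00503 with limma). *Ccnb1* (0.22) and *Cdk1* (0.14), the subunits of the kinase that drives mitosis, completed the calls. By voom, 5 of the 12 were higher and 3 lower (*Bub1*, *Ccnb2* and *Cenpf*). Among all genes 20.1% were higher and 16% lower with limma, and 21.8% higher and 22% lower by voom.

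**Figure D5:**
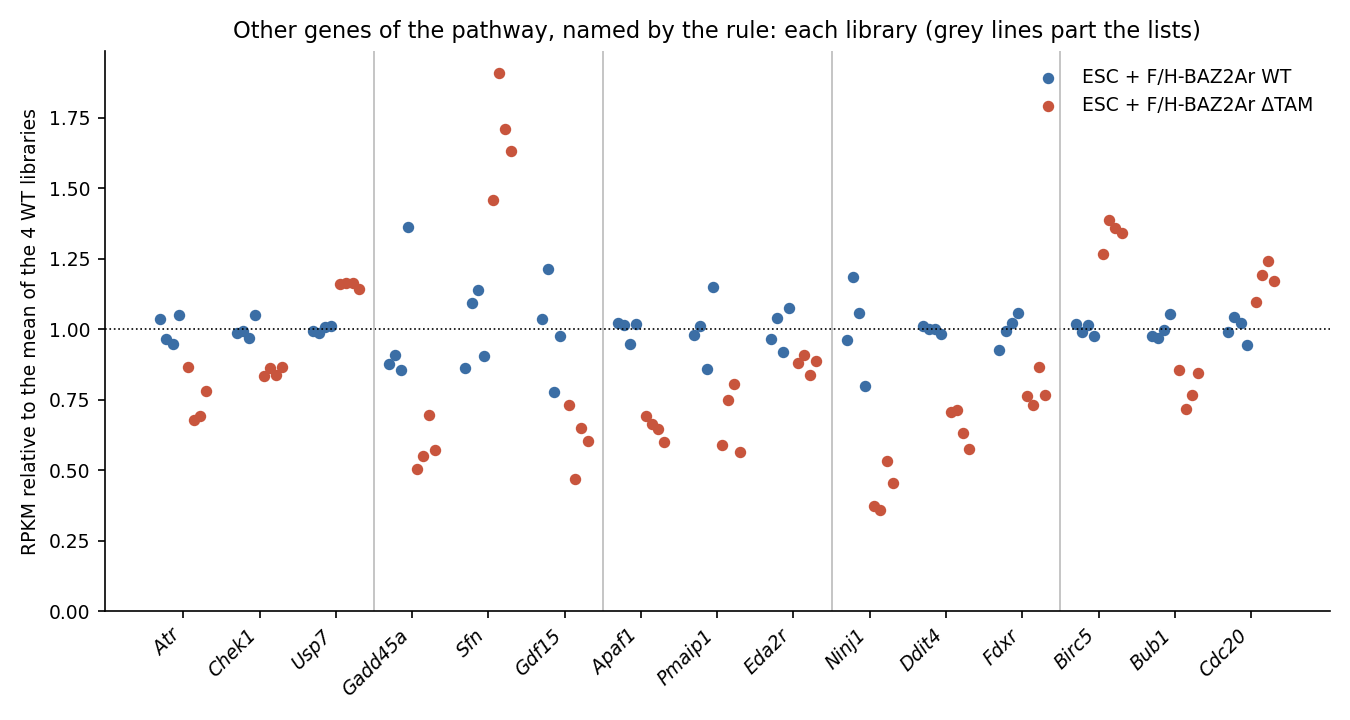
RPKM of the 15 other named genes in each library, divided by the mean of the 4 WT libraries (vertical axis from 0), WT line in blue and ΔTAM line in red; grey lines separate regulators, cell cycle, apoptosis, metabolism and repair targets, and p21-DREAM genes. The ΔTAM libraries of *Usp7*, *Sfn*, *Birc5* and *Cdc20* lie above the WT libraries and those of the other 11 genes below them, with WT replicate 4 of *Gadd45a* standing apart.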

How the data were processed

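The RNA-seq was of polyA RNA with a stranded kit. Reads were freed of ribosomal RNA, trimmed and mapped to mm10 with STAR by the authors, who deposited the exon coverage of each gene as RPKM, 1 column per library. The submitters' processing notes also name FastQC, Trimmomatic 0.36 and DESeq2. Which annotation release was used, whether strand was used and how multimapping reads were counted is not given in the sources used here.

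The 51288 deposited entries hold 231 repeated symbols; 386 entries were set aside. Multiplied by the genomic span, 99.6% to 99.7% of the RPKM values of a library were whole multiples of 1 step (tolerance 0.1), from which reads were recovered. Of the members, 9 have the exact coordinates of GENCODE vM21, which gave exon lengths.

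limma 3.58.1 in R 4.3.3 (lmFit, eBayes with trend) was fitted to log2(RPKM + 0.01) of the 9002 genes whose mean reached 0.1 RPKM, with Benjamini-Hochberg adjustment over all of them; fold changes are on this scale. limma voom was fitted to the recovered reads where their mean reached 10. Exact permutation tests were two-sided. The procedure was also run on simulated reads. These had the same spread beyond counting for every gene, unlike the libraries here, so that run does not measure the error of these calls. Promoter windows were scanned with Python 3.11.15. Alternatives changed the pseudocount, filter, scaling, variance model, replicate block or unit, or left out a library. The genes and lists were chosen with earlier results of these data known. Besides the members and *Baz2a*, the genes named are, per list of other pathway and p21-DREAM genes, the 3 with the largest absolute log2 fold change among those called with a mean of at least 20 reads. Other genes of these lists (further calls, *Mdm4*, *Ppm1d*, *Atm*, *Chek2*, *Trp53bp1*, *Cop1*, *Gpx1*, *Prkab1*, *Ephx1*, *Ddb2*, *Zfp385a*, *Rps27l*, *Ccnb2*, *Cenpf*), the ATF4 targets and the markers were named after their values were seen. Cop1 stands under its older symbol Rfwd2 in the table.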

Additional observations from a re-analysis of the deposited data

Results flagged for a closer look

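In 2 of 52 groups of 4 libraries examined, 1 for each named gene and line, a single library lay far from the other 3 relative to the range (Dixon's test at 95%), where chance flags about 1 in 20 groups. *Gadd45a* had 0.886 RPKM in WT replicate 4, with the nearest WT library at 0.592 RPKM. *Apaf1* had 0.194 RPKM in WT replicate 3, with the nearest WT library at 0.208 RPKM. Both genes were lower in the ΔTAM line with and without these libraries.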

How the results depend on the processing

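*Cdkn1a*, *Mdm2*, *Ccng1* and *Sesn1* kept their direction and their call under the alternatives that could test them. Among the 10 genes, the number called higher was 4, fell to 2 with quantile normalization, and ranged from 2 to 4 with each library left out in turn (2 without WT replicate 2, ΔTAM replicate 1 or ΔTAM replicate 4), the calls lost being those of *Trp53* and *Trp53inp1*. Among the other pathway genes, 3 were higher and 5 lower with a minimum mean of 1 RPKM, under which fewer genes were tested, and 10 were higher and 21 lower with voom. Over all genes, 591 were higher and 401 lower with that minimum, and 2758 and 2782 with voom, which tested 12659. Quantile normalization turned the balance over all genes round, with 1569 higher and 1705 lower, and gave 5 higher and 21 lower among the other pathway genes. Small differences changed sign without single libraries. The log2 fold change of *Phlda3* ranged from -0.031 to 0.078 with each library left out, and was -0.031 without ΔTAM replicate 3 and -0.015 without WT replicate 4. That of *Btg2* ranged from -0.0013, without WT replicate 4, to 0.11. Same-numbered libraries of the lines correlated at 0.026, 0.21, 0.14 and 0.22 in their deviations from the line means, and not every library correlated best with its own number, so the numbers were not taken as pairs. With the replicate block, 1560 genes were higher and 1247 lower, and *Trp53* (adjusted p = 0.0817 with limma), *Gdf15* (0.0519) and *Pmaip1* (0.0589) lost their calls. Counting error was largest for *Btg2* and *Bbc3* among the 10 genes, between 6.68% and 8.16% of the mean.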
